A study of Mus musculus with 24 samples.

Results

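RNA-seq libraries of mouse prefrontal cortex were examined for 8 adrenergic receptor genes: Adra1a, Adra1b, Adra1d, Adra2a, Adra2b, Adra2c, Adrb1 and Adrb3. They were taken by gene symbol, without regard to any measured value, and are 8 of the 45777 genes in the count table. All tissue came from adult male wild-type mice, and there were 24 libraries in 4 groups of 6. The MS_EC12 group had gone through maternal separation and then received EC-12, a heat-killed preparation of Enterococcus faecalis, for 5 weeks. The Control_EC12 group received the same supplement without the separation. The MS group had the separation alone, and the Control group had neither. The labels name no strain, exact age or dose of EC-12. They also leave unsaid whether different libraries stand for different mice, and p-values below therefore measure spread between libraries, which may be partly technical. The study's title names maternal separation, a social deficit and EC-12, and the 4 groups allow the supplement to be compared within each rearing.

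Adrenergic receptors are seven-helix membrane proteins that bind noradrenaline and adrenaline, and in the cortex the noradrenaline comes from axons of the locus coeruleus in the brainstem. Receptors of the α1 class (Adra1a, Adra1b, Adra1d) signal through Gq proteins to phospholipase C and intracellular calcium. Receptors of the α2 class (Adra2a, Adra2b, Adra2c) signal through Gi proteins and lower cyclic AMP; Adra2a encodes the α2A receptor, found both on noradrenergic neurons and on cortical pyramidal cells, where it is known for its part in working memory. Receptors of the β class (Adrb1, Adrb3) signal through Gs proteins, which raise cyclic AMP; Adrb1 encodes the main β receptor of cortical neurons, and Adrb3 is best known for fat breakdown and heat production in adipose tissue.

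The 8 genes are related, so their coding sequences were compared to see whether reads of one could be counted for another. Over the 28 pairs, identity of the aligned coding bases ran between 57.4% and 72.8%, the highest for Adra2a and Adra2c. A single transcript per gene, with the longest coding sequence, was also compared in full. Among these transcripts, the longest exact run shared was 30 bases, between Adrb3 and Adrb1, and no pair shared a run of 50 bases. The Adrb3 transcript compared held 1336 bases, and the longest of that gene 2795, so part of the Adrb3 sequence was not searched. The lines below show, for each receptor class, a stretch of 2 coding sequences around a run that both hold (GENCODE release for GRCm38, 5′ to 3′ on the coding strand), with the shared run in capitals; the remaining letters show how quickly the copies part from each other on either side.
Adrb3: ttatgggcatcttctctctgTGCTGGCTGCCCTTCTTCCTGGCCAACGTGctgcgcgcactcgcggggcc
Adrb1: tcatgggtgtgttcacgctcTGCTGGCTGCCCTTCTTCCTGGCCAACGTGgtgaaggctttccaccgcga
Adra2c: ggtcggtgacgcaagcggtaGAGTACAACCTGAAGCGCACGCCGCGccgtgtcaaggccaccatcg
Adra2a: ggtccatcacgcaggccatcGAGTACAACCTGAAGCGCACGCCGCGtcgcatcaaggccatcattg
Adra1b: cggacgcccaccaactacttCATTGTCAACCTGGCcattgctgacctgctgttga
Adra1a: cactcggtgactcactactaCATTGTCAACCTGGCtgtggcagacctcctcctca
The β pair shares 30 bases, beginning at coding base 901 of Adrb3 and at coding base 973 of Adrb1. The α2 pair shares 26 bases, and the α1 pair shown shares 15. Longer runs of 20 bases were shared by Adra1a with Adra1d and by Adra1b with Adra1d.

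On the GRCm38.p6 assembly, Adra1a lies at chr14:66635251-66771240, Adra1b at chr11:43774605-43901250 and Adra1d at chr2:131545357-131562497. Adra2a lies at chr19:54045259-54048982, Adra2b at chr2:127363179-127367221 and Adra2c at chr5:35278566-35281763. Adrb1 lies at chr19:56722117-56725150 and Adrb3 at chr8:27225776-27230845. The other six overlap no annotated gene. Adrb3 overlaps the long non-coding RNA gene Gm45470, which had 8 to 49 counts per library. Adra1d overlaps 2 such genes, Gm14285, with 32 to 85 counts, and Gm39938, with 0 to 2 counts. The library kit keeps strand, but whether the counting used it is not given in the sources used here. Reads counted for Adrb3 and for Adra1d may therefore include reads of the genes that overlap them.

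Library totals ran between 26250197 and 39252382 counts. Neuronal markers were present in every group, with a median summed level of 8 genes between 9599 CPM (counts scaled to the library total) in MS_EC12 and 9881 CPM in Control libraries. The libraries differed in how gene level followed base composition. For each library, the slope of its log2 CPM, relative to the gene means, on the GC content of the transcript was computed, per 10 percentage points of GC. This GC slope lay between 0.0979 and 0.627 in 7 libraries and between -0.206 and -0.0887 in the other 17, with none between. The 7 libraries were 4 of MS_EC12, 2 of Control_EC12, 1 of MS and 0 of Control, so the slope moved with the groups, and values without those 7 libraries are given beside the results that turn on it.

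All 8 receptors had counts in every library and passed the filter on low counts, and they fell into a more abundant set and a scarce pair. In TPM, a unit of relative abundance that allows for transcript length, Adra1d averaged 20.9 ± 3.85, Adrb1 18.3 ± 2.18, Adra2c 18.1 ± 3.22 and Adra1b 16.5 ± 3.27 (SD, n = 24 libraries). Neighbours in this order lay within each other's spread: Adra1d was above Adrb1 in 19 of 24 libraries, Adrb1 above Adra2c in 15, and Adra2c above Adra1b in 18. The first and last of the 4 were further apart, with Adra1d above Adra1b in 23 of 24 libraries. Adra2a followed at 11.1 ± 1.21 TPM, below Adra1b in 23 of 24 libraries, and Adra1a at 6.98 ± 1.55 TPM, below Adra2a in all 24. Adrb3 averaged 1.07 ± 0.266 TPM and Adra2b 0.516 ± 0.189 TPM, with Adrb3 the higher in 23 of 24 libraries. The lowest Adra1a level in TPM lay above the highest Adrb3 level. This order is that of TPM and differs in CPM, which does not allow for transcript length. There Adra1a had the highest mean of the 8, 37.1 ± 7.71 CPM, against 23.2 ± 4.40 CPM for Adra1d (SD, n = 24 libraries).

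**Figure D1:**
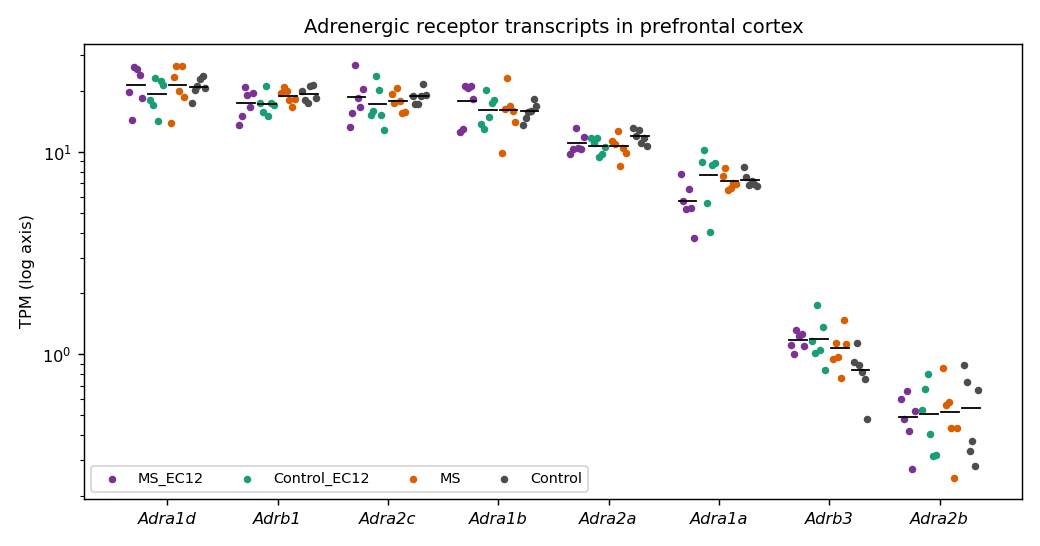
TPM (log axis) of the 8 receptors, ordered by their mean, in each of the 24 libraries; points are libraries, colours are the 4 groups and black bars are group means. The first 6 receptors averaged between 6.98 and 20.9 TPM, and Adrb3 and Adra2b stood apart near 1.07 and 0.516 TPM in all groups.

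Summed TPM of the 8 genes averaged 93.4 and ran between 75.6 and 116 across libraries. Adra1d made up 22.2% of that sum on average, Adrb1 19.6%, Adra2c 19.4%, Adra1b 17.6%, Adra2a 11.9% and Adra1a 7.58%, while Adrb3 gave 1.15% and Adra2b 0.558%. Among the genes tested, 63.4% had a lower mean TPM than Adra1d, 49.8% a lower one than Adra2a and 41.6% a lower one than Adra1a. For the scarce pair, 17.6% had a lower mean TPM than Adrb3 and 9.68% a lower one than Adra2b. The spread between libraries of a group, as an SD of log2 CPM, was smallest for Adra2a (0.156) and Adrb1 (0.183) and largest for Adra2b (0.516). Adra2b rested on 12 to 49 counts per library and Adrb3 on 18 to 68, so changes of these 2 genes were measured far less precisely than those of Adra2a or Adrb1.

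The tests below come from edgeR's quasi-likelihood test on counts of 18380 genes, with Benjamini-Hochberg adjustment over all of them and a threshold of 0.05. The comparison of the MS_EC12 with the Control group asks what separation followed by the supplement left relative to mice that had neither. Adrb3, the β3 receptor gene, was the 1 receptor of 8 that passed it, and it rose. Adrb3 had 1.35, 1.40, 1.81, 1.79, 1.68 and 1.63 CPM in the MS_EC12 libraries, against 1.14, 1.42, 1.20, 1.02, 1.01 and 0.644 CPM in the Control libraries. All 6 MS_EC12 libraries lay above the Control mean, although the lowest 2 of them lay under the highest Control library, so the groups overlapped. Means were 1.61 ± 0.194 CPM in MS_EC12 and 1.07 ± 0.259 CPM in Control (SD, n = 6 each), a log2 fold change of 0.58 ± 0.189 (SE), or 1.49-fold, with an adjusted p of 0.0457. The same test called 14.1% of all genes in this comparison and 7.31% of all genes as higher, so 1 receptor of 8 is a share near that background.

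The other 7 receptors did not pass in this comparison, with adjusted p between 0.201 and 0.981. Adra1b had the highest value among them, with 26.3 ± 5.88 CPM in MS_EC12 and 21.4 ± 2.72 CPM in Control libraries (log2 fold change 0.29 ± 0.170 SE). Adra1a had the lowest, with 32.7 ± 7.15 CPM in MS_EC12 and 38.3 ± 2.94 CPM in Control libraries (-0.23 ± 0.171). Log2 fold changes of the rest were 0.14 for Adra1d, 0.10 for Adra2c, 0.0040 for Adra2a, -0.03 for Adra2b and -0.03 for Adrb1. The 95% interval was narrow for Adra2a, -0.18 to 0.19, and wide for Adra2b, -0.61 to 0.55. MS_EC12 libraries were also more scattered than Control libraries for 6 of these 7 genes, as for Adra2c, which ran between 17.9 and 38.9 CPM in MS_EC12 and between 22.7 and 28.7 CPM in Control.

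**Figure D2:**
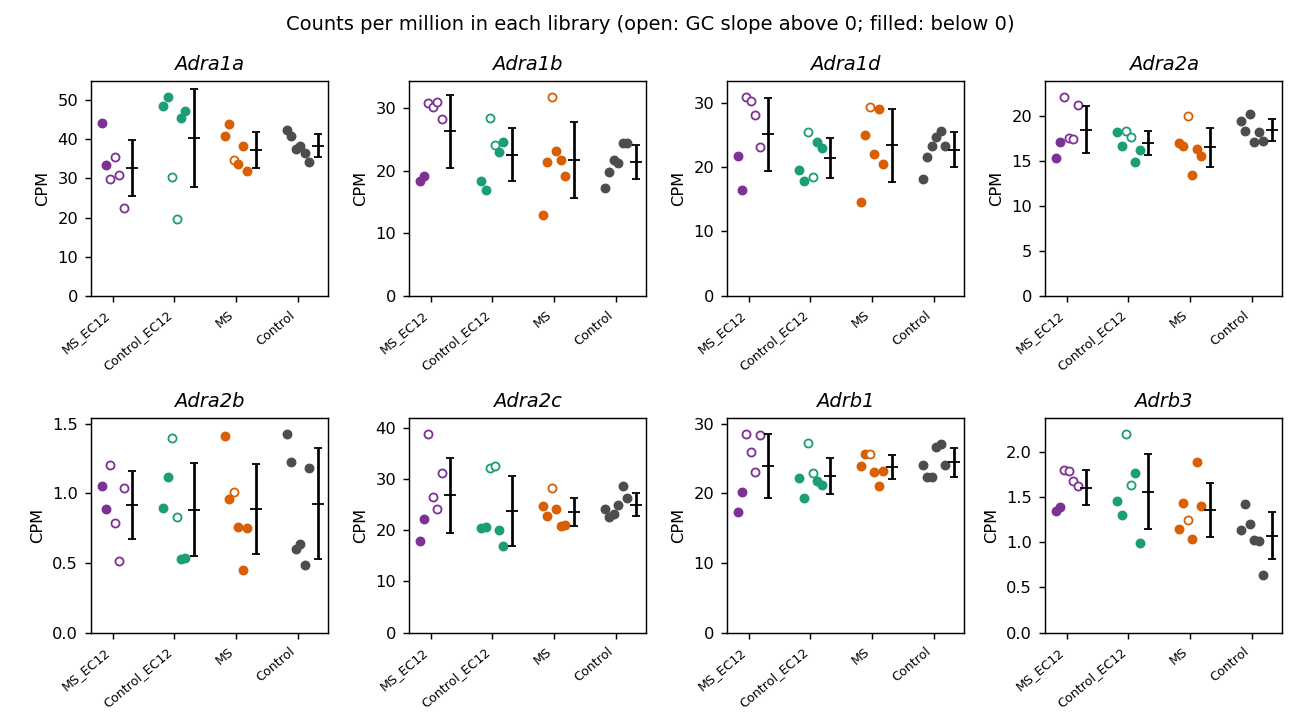
CPM of each receptor in each library, by group; points are libraries (open where the GC slope is above 0, filled where it is below), and bars are the group mean ± SD (n = 6). For Adrb3 the MS_EC12 mean of 1.61 CPM stands above the Control mean of 1.07 CPM; for Adra1b, the 4 open MS_EC12 points lie between 28.2 and 31.0 CPM and the 2 filled ones at 18.4 and 19.2 CPM.

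The call on Adrb3 rested on few counts and on the make-up of the groups. The MS_EC12 libraries held 41 to 63 counts of the gene and the Control libraries 18 to 51. It passed when MS_EC12 replicate 1 or 2 was left out (adjusted p 0.0205 and 0.0236) and missed the threshold when any of the 6 Control libraries or MS_EC12 replicate 3, 4, 5 or 6 was left out (adjusted p between 0.0553 and 0.115), while the log2 fold change stayed between 0.47 and 0.68. In the 17 libraries of GC slope below 0 the log2 fold change was 0.35 ± 0.271 (adjusted p = 0.619): the 2 MS_EC12 libraries had 1.35 and 1.40 CPM, against 0.644 to 1.42 CPM in the 6 Control libraries. With the slope as a covariate over all 24 libraries it was 0.40 (adjusted p = 0.483).

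EC-12 in mice without separation gave Adrb3 a similar value that did not pass the test. Adrb3 had 1.46, 1.30, 2.21, 1.63, 1.77 and 0.997 CPM in the Control_EC12 libraries, with a mean of 1.56 ± 0.415 CPM against 1.07 ± 0.259 CPM in Control (SD, n = 6 each). The log2 fold change was 0.53 ± 0.190 (SE), with an unadjusted p of 0.00962 and an adjusted p of 0.397; 5 of 6 Control_EC12 libraries lay above the Control mean. In the 17 libraries of GC slope below 0 the log2 fold change was 0.36 ± 0.218 (adjusted p = 0.481). In this comparison 0.0218% of all genes were called, and 0 of 8 receptors; Adrb3 was the 1 receptor with an unadjusted p under 0.05, and DESeq2 likewise called 0. The other 7 receptors had log2 fold changes between -0.12 and 0.07 and adjusted p between 0.697 and 0.942. Adra2a lay under the Control mean in 6 of 6 Control_EC12 libraries, at 17.003 ± 1.35 CPM in Control_EC12 and 18.4 ± 1.25 CPM in Control (log2 fold change -0.12 ± 0.094, adjusted p = 0.697).

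Separation alone, MS against Control, called 0 of 8 receptors, 0 at an unadjusted p under 0.05 and 0 with DESeq2, and 0.0326% of all genes. Adrb3 averaged 1.36 ± 0.300 CPM in MS and 1.07 ± 0.259 CPM in Control libraries (log2 fold change 0.33 ± 0.192), and the other 7 lay between -0.16, for Adra2a, and 0.04, for Adra1d. Supplement within separated mice, MS_EC12 against MS, called 0 of 8 and 0.163% of all genes, with 0 receptors at an unadjusted p under 0.05 and 0 by DESeq2. There Adrb3 had a log2 fold change of 0.25 ± 0.186 (adjusted p = 0.347), Adra1b 0.28, Adra2c 0.18, Adra2a 0.16, Adra1d 0.10, Adra2b 0.03, Adrb1 0.01 and Adra1a -0.19. Separation among supplemented mice, MS_EC12 against Control_EC12, called 0 of 8 and 0.261% of all genes, again with 0 receptors at an unadjusted p under 0.05 and 0 by DESeq2. Its lowest value was Adra1a, with 32.7 ± 7.15 CPM in MS_EC12 and 40.3 ± 12.5 CPM in Control_EC12 (log2 fold change -0.30 ± 0.171, adjusted p = 0.337), and Adrb3 had 0.04 ± 0.185, with a 95% interval of -0.32 to 0.40. The remaining log2 fold changes there were 0.23 for Adra1d, 0.22 for Adra1b, 0.17 for Adra2c, 0.12 for Adra2a, 0.09 for Adrb1 and 0.04 for Adra2b, with adjusted p of all 8 between 0.337 and 0.941. Every receptor's groups overlapped in all 5 comparisons.

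**Figure D3:**
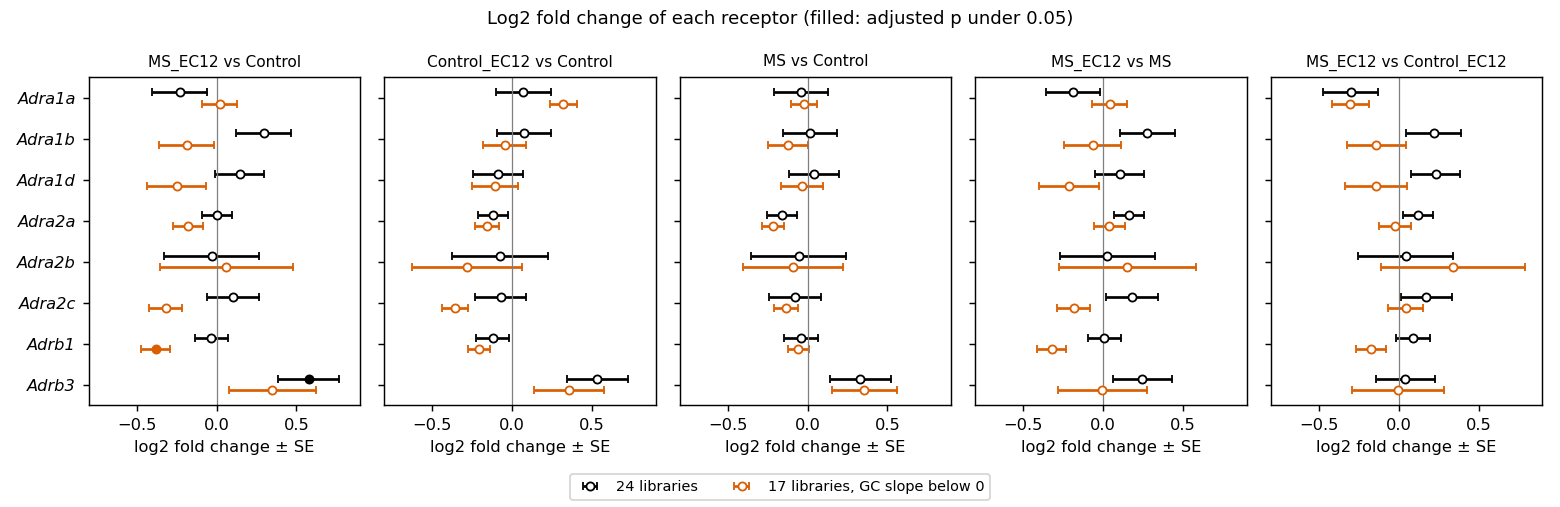
Log2 fold change ± SE of each receptor in the 5 comparisons of groups, from all 24 libraries (black) and from the 17 libraries of GC slope below 0 (orange); filled points have an adjusted p under 0.05. The filled points are Adrb3 at 0.58 over all libraries and Adrb1 at -0.38 in the 17 libraries, both for MS_EC12 against Control.

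Averaged over the 2 rearings, the supplemented groups against the unsupplemented ones gave Adrb3 a log2 fold change of 0.39 ± 0.133 (SE), with an adjusted p of 0.0614. This value was 0.18 ± 0.176 in the 17 libraries of GC slope below 0 (adjusted p = 0.665). The other 7 receptors lay between -0.06 and 0.18 over all libraries, with adjusted p between 0.298 and 0.963. That comparison called 0 of 8 receptors, 1 at an unadjusted p under 0.05, and 7.88% of all genes, and DESeq2 called Adrb3 with an adjusted p of 0.0477. The interaction of separation and EC-12, which asks whether the supplement's effect depended on rearing, called 0 of 8 and 0.0109% of all genes, and DESeq2 called 0. Adra2a, the 1 receptor there at an unadjusted p under 0.05, had an interaction of 0.28 ± 0.133 on the log2 scale (adjusted p = 0.83): its supplement difference was 0.16 in separated mice and -0.12 in the others. Adrb3 had an interaction of -0.29 ± 0.266 (adjusted p = 0.83), so a difference in its response between rearings was not detectable at this precision. Within the 17 libraries the interaction was 0.20 ± 0.122 for Adra2a (adjusted p = 0.847) and -0.36 ± 0.354 for Adrb3 (adjusted p = 0.934). Over all libraries the receptors other than Adrb3 had interactions between -0.26 and 0.28, with adjusted p between 0.83 and 0.946. Separation averaged over both supplement states called 0 of 8 receptors, 0 at an unadjusted p under 0.05 and 0 by DESeq2, and 0.288% of all genes, with log2 fold changes between -0.17 and 0.19.

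Receptor levels moved with the GC slope of the libraries, in directions that differed among the genes. In the 7 libraries of slope above 0, log2 CPM was higher on average than in the 17 below 0 for 7 receptors: by 0.52 for Adra1b, 0.44 for Adra2c, 0.43 for Adrb3, 0.29 for Adra1d, 0.20 for Adrb1, 0.18 for Adra2a and 0.16 for Adra2b. Adra1a went the other way, with a difference of -0.49. Adra1b had 24.1 to 31.8 CPM in the libraries above 0 and 13.0 to 24.6 CPM in those below, and Adra1a 19.6 to 35.4 CPM above and 31.8 to 50.8 CPM below. The transcript of Adra1a had the lowest GC content of the 8 (50.1%) and that of Adra2c the highest (65.5%), but the order was not that of GC content, since Adra1b with 54.5% had the largest difference. These are descriptions of libraries, not tests of a group, and their part in the group differences beyond the values with and without the 7 libraries was not tested.

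**Figure D4:**
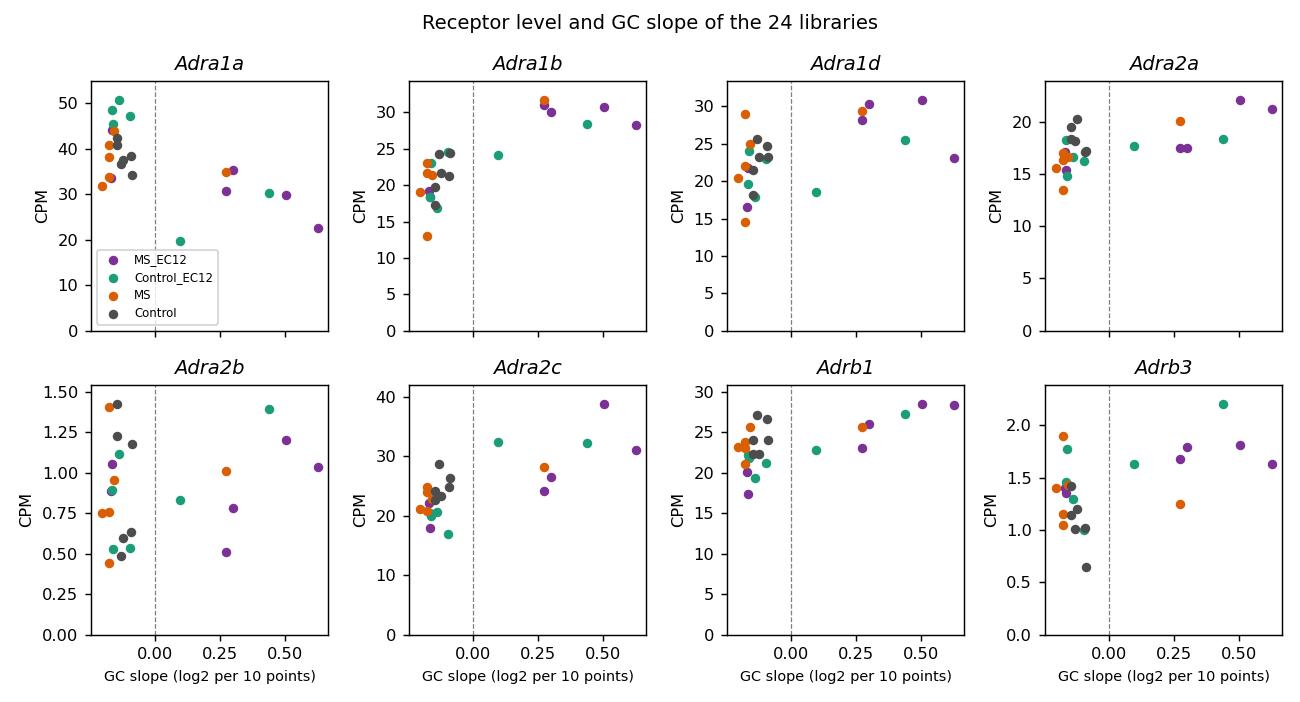
CPM of each receptor against the GC slope of the library (log2 CPM per 10 percentage points of transcript GC), with 1 point per library coloured by group; the dashed line marks 0. Adra1b is higher in the 7 libraries right of the line (24.1 to 31.8 CPM) than in most of the 17 left of it, and Adra1a is lower there (19.6 to 35.4 CPM).

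Among the 17 libraries of slope below 0, Adrb1, the β1 receptor gene, fell in MS_EC12 against Control, which the full set did not show. The 2 MS_EC12 libraries had 17.4 and 20.1 CPM, against 22.3, 22.4, 24.03, 24.1, 26.7 and 27.1 CPM in the 6 Control libraries, with no overlap. The log2 fold change was -0.38 ± 0.091 (SE, adjusted p = 0.0457), where 1.05% of all genes were called, and over all 24 libraries it was -0.03 ± 0.104. The 4 MS_EC12 libraries of slope above 0 had 23.0 to 28.6 CPM. The EC-12 average in the 17 libraries was -0.26 ± 0.058 for Adrb1 (adjusted p = 0.0461, with 0.62% of all genes called), against -0.06 ± 0.074 over all 24. With the slope as a covariate over all 24 libraries, Adrb1 missed the threshold, at -0.29 for MS_EC12 against Control (adjusted p = 0.11) and -0.22 for the EC-12 average (adjusted p = 0.0508).

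Adra2c and Adra1a came close to the threshold in the same 17 libraries without passing it. Adra2c had 16.9 to 20.6 CPM in the 4 Control_EC12 libraries, against 22.7 to 28.7 CPM in the 6 Control libraries, without overlap (log2 fold change -0.36 ± 0.081, adjusted p = 0.0538). Adra1a had 45.5 to 50.8 CPM in those 4 Control_EC12 libraries, against 34.3 to 42.4 CPM in Control, again without overlap (0.32 ± 0.086, adjusted p = 0.101). In that comparison 0.473% of all genes were called. The 2 Control_EC12 libraries of slope above 0 lay on the other side of the Control range for both genes, with Adra2c at 32.2 and 32.5 CPM and Adra1a at 19.6 and 30.3 CPM, so the log2 fold changes over all 24 libraries were -0.07 for Adra2c and 0.07 for Adra1a. In the remaining comparisons within the 17 libraries, 0 of 8 receptors were called, beside 0.484% of all genes for MS against Control, 0.0762% for MS_EC12 against MS, 0.18% for MS_EC12 against Control_EC12, 0.0109% for the interaction and 1.7% for the separation average.

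The upstream sequence of Adrb1 is given because it was the β gene that moved in those libraries, beside that of Adra2c, the receptor whose profile over the 24 libraries was the closest to its own. The windows are the 250 bases before the annotated start (RefSeq, GRCm38.p6, given on the gene's strand); 5 of the 8 receptors had such a window. Capitals mark the letters TGACG, part of the binding sequence of the cyclic AMP responsive factor CREB, and GGGCGG, a GC box, each searched on both strands.
Adrb1, chr19:56721867-56722116, + strand: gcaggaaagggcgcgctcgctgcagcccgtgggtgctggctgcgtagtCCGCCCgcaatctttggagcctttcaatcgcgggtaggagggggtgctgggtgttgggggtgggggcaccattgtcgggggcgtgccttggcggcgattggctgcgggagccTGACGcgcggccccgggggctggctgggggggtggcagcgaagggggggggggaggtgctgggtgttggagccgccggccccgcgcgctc
Adra2c, chr5:35278316-35278565, + strand: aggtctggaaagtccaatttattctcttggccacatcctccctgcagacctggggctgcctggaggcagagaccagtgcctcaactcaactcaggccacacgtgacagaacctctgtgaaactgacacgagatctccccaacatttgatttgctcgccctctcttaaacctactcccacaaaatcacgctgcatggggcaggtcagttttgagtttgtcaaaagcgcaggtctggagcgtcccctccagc
The Adrb1 window holds 1 TGACG and 1 GGGCGG match and has a GC content of 74%, and the Adra2c window holds neither and has 53.6%. Of 32851 such windows in the genome, 17.8% hold TGACG and 32.7% hold GGGCGG, so these are common letters. A match is a description of the sequence only.

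Each receptor's profile over the 24 libraries was compared with those of all other tested genes by the mean absolute difference of standardized log2 CPM, in SD units; the median gene differed from a receptor by between 1.06 and 1.13. Among the closest were Kat6b (0.262) to Adra1a, Zfpm1 (0.281) and Grk2 (0.302) to Adra1b, and Hpcal4 (0.370) and Dlgap4 (0.392) to Adra1d. For the α2 genes they were Zfp444 (0.457) and Pbx2 (0.476) to Adra2a, Tfap4 (0.562) and Radil (0.572) to Adra2b, and Tmem158 (0.330) and Necab2 (0.348) to Adra2c. Mid1ip1 (0.424) and Tnk2 (0.441) were closest to Adrb1, and Ucma (0.542) and Rps27a-ps2 (0.578) to Adrb3. Among the receptors themselves, Adra1b and Adra1d were the closest pair (0.434), followed by Adra2c and Adrb1 (0.481). All these profiles share the same libraries and their GC slopes.

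The genes that make, carry and degrade noradrenaline did not pass in any comparison: 0 of 11 tested genes of 12 listed. Slc6a2, the noradrenaline transporter gene, was at 0 counts in all 24 libraries, and Dbh, the enzyme that turns dopamine into noradrenaline, averaged 0.568 CPM in MS_EC12, 0.535 in Control_EC12, 0.374 in MS and 0.454 in Control libraries. Th, the rate-limiting enzyme of catecholamine synthesis, had the highest value of the list in the EC-12 average, 0.87 ± 0.290 (SE, adjusted p = 0.0577), and 0.86 ± 0.358 in the 17 libraries of GC slope below 0 (adjusted p = 0.240). Th averaged 24.1 ± 12.9 CPM in MS_EC12, 27.8 ± 10.9 in Control_EC12, 13.0 ± 7.48 in MS and 15.3 ± 7.89 in Control libraries (SD, n = 6 each). Th is also a gene of the olfactory bulb, and the summed level of 8 olfactory bulb markers, Th among them, ran between 60.9 and 360 CPM in MS_EC12, 139 and 447 in Control_EC12, 29.8 and 198 in MS and 39.0 and 229 in Control; its part in the Th values was not tested. Maoa and Slc29a4, an oxidase and a transporter of monoamines, and Cyb561, a cytochrome of the storage vesicle, had the smallest p-values of the list for MS_EC12 against Control, with log2 fold changes of -0.36, 0.28 and 0.16 and adjusted p of 0.0912, 0.116 and 0.123. The median log2 fold change of the list in that comparison was -0.01, against 0.01 over all genes tested.

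Downstream of the receptors, 5 lists held 55 further genes, all tested. For MS_EC12 against Control, 1 passed higher and 5 lower, beside the 14.1% of all genes called. Gnaq, a Gα subunit through which α1 receptors act, fell, with 224 ± 30.5 CPM in MS_EC12 and 269 ± 8.28 CPM in Control libraries (log2 fold change -0.27, adjusted p = 0.0471). Plcb1, the phospholipase C that Gq proteins activate, fell as well, with 194 ± 48.9 CPM in MS_EC12 and 264 ± 10.4 CPM in Control (-0.44, adjusted p = 0.0471). Akap5, a scaffold that holds protein kinase A near receptors and channels, had 96.2 ± 32.5 CPM in MS_EC12 and 145 ± 4.69 CPM in Control (-0.59, adjusted p = 0.0354). Genes that end receptor signals passed too: the receptor kinase gene Grk5 (-0.23, adjusted p = 0.0489) and Rgs4, which speeds the shut-off of Gq and Gi proteins (-0.33, adjusted p = 0.0425), fell, and the β-arrestin gene Arrb2 rose (0.26, adjusted p = 0.0416). In the 17 libraries of GC slope below 0, 0 of these 6 genes passed (adjusted p between 0.596 and 0.797), and each passed in 2 of the 12 fits that leave out 1 library; Arrb2 also missed the threshold on the TPM scale (adjusted p = 0.261). Without the filter on low counts 0 of the 6 passed (adjusted p between 0.0566 and 0.0821), and with the GC slope as a covariate 0 passed (0.396 to 0.664). Gnaq (0.05001) and Grk5 (0.0526) missed the threshold under the other scaling, RLE, and Grk5 (0.0624) and Rgs4 (0.0616) missed it when the compared groups were fitted alone.

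In the EC-12 average, 8 of the 55 downstream genes passed, all lower, beside 7.88% of all genes called. The protein kinase A list gave 5 of its 12: the catalytic subunit gene Prkacb (log2 fold change -0.22, adjusted p = 0.0243), the regulatory subunit genes Prkar2a (-0.19, adjusted p = 0.024) and Prkar2b (-0.29, adjusted p = 0.0283), Akap5 (-0.48, adjusted p = 0.028) and the phosphodiesterase gene Pde10a (-0.36, adjusted p = 0.0479). The G protein list gave 2 of its 10, Gnal, a Gα subunit that raises cyclic AMP (-0.32, adjusted p = 0.0308), and Gnaq (-0.21, adjusted p = 0.0412). Rgs4 (-0.25, adjusted p = 0.0411) completed the 8. Prkacb had 494 ± 47.0 CPM in MS_EC12 and 494 ± 56.5 in Control_EC12, against 584 ± 37.9 in MS and 568.5 ± 23.8 in Control. The median log2 fold change of the protein kinase A list was -0.17 and that of the G protein list -0.10, against 0.02 over all genes tested. None of the 9 adenylyl cyclase genes passed in any comparison. Over all 24 libraries no gene of any of these lists passed in the other 6 comparisons. Akap12, of the protein kinase A list, passed lower in the 17 libraries of GC slope below 0 for separation averaged over both supplement states. There 1.7% of all genes were called, and over all 24 libraries the log2 fold change of Akap12 was -0.27 (adjusted p = 0.204). In the 17 libraries of GC slope below 0, 0 of the 8 genes passed (adjusted p between 0.136 and 0.409), with log2 fold changes between -0.27 and -0.07, and with the GC slope as a covariate 0 passed (0.0928 to 0.269). Of the 24 fits that leave out 1 library, Prkar2a passed in 23, Prkacb in 21, Akap5 in 18, Gnal and Prkar2b in 17 each, Rgs4 in 9, Gnaq in 7 and Pde10a in 6. Without the filter on low counts, Gnaq and Rgs4 (both 0.0653) and Pde10a (0.0732) missed the threshold. Gnal and Pde10a are also genes of the striatum; the summed level of 13 striatal markers ran between 880 and 2109 CPM in MS_EC12, 900 and 1846 in Control_EC12, 1304 and 1809 in MS and 1312 and 1531 in Control, 0 of 13 passed, and the median log2 fold change of the 13 in the EC-12 average was -0.06 over all libraries and -0.27 in the 17. The part of tissue composition in these values was not tested.

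Markers of other cell types and tissues were compared in the same way. Of 5 markers of fat, where Adrb3 is best known, 0 reached the filter on low counts; Cidec and Lep were at 0 in all 24 libraries, and the summed level of the 5 was 0 to 0.336 CPM in MS_EC12 and 0 to 0.257 CPM in Control libraries. For MS_EC12 against Control, 2 of 8 microglial markers rose, Trem2 and C1qa, with a summed level of 345 to 441 CPM in MS_EC12 and 319 to 376 CPM in Control. Of 9 astrocyte markers, 2 rose (Aldh1l1, Aldoc) and 2 fell (Aqp4, Gja1), with a sum of 3717 to 4704 CPM in MS_EC12 and 4493 to 4875 CPM in Control. Of 8 neuronal markers 1 fell (Syt1), and of 10 markers of mural cells, the contractile cells of vessels, 1 rose (Vtn). Endothelial markers rose for 1 (Ly6c1) and fell for 1 (Slco1a4) of 9, and Oxt rose among 5 tested markers of the septum and hypothalamus. None of 9 markers of meningeal fibroblasts passed there, and none of 8 of the olfactory bulb. For MS_EC12 against Control in the 17 libraries of GC slope below 0, Aqp4 and Gja1 were the markers of these lists that passed, both lower. The olfactory bulb markers, although none passed, had log2 fold changes above 0 for 8 of 8 in every comparison of supplemented with unsupplemented groups: the median was 0.69 for MS_EC12 against Control, 0.90 for Control_EC12 against Control, 0.77 for MS_EC12 against MS and 0.88 for the EC-12 average. Within the 17 libraries these medians were 0.44, 1.01, 0.69 and 0.86, again with 8 of 8 above 0. The part of these shifts in the Adrb3 value was not tested, and in bulk tissue fewer cells of a type and less RNA per cell cannot be told apart.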

How the data were processed

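FastQC 0.11.7, HISAT2 2.1.0, Trimmomatic 0.38 and StringTie 2.1.3b appear in the submitters' processing notes beside DESeq2 and the mm10 build, without their roles. How reads were assigned to genes, and with which strand rule, is not stated in the sources used here. Per the labels' protocols, ISOGEN II was used for RNA and the TruSeq Stranded mRNA kit for libraries. In the deposited table each gene has read counts, FPKM and TPM for every library, per the file headers. The counts are raw and whole; the deposited TPM gave the levels, and the deposited FPKM values were not used for any result.

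Genes were tested with edgeR 4.0.16 (quasi-likelihood F test, TMM scaling, R 4.3.3) over all 24 libraries, after a filter on low counts (minimum count 10, minimum total 15) that kept 18380 of 45777 genes. The Benjamini-Hochberg adjustment ran over every tested gene, and the threshold was 0.05. CPM of single genes are counts over TMM-scaled library totals. Summed levels of marker lists are counts over library totals without the TMM scaling. The code was tested on simulated data. DESeq2 1.42.0 and limma 3.58.1, on log2(TPM + 0.5) and log2(TPM + 0.1), were alternatives, beside another scaling, no filter, a replicate block, the compared groups alone, the GC slope as a covariate, the 17 libraries of GC slope below 0, and each library left out. The GC content of transcripts was known for 82.4% of the genes tested. Coding sequences were aligned with Biopython 1.88.

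All 8 receptors are reported in every comparison, by a value or within a range. Of the pathway lists, every gene past the threshold is named, or else up to 3 of the smallest p. Some genes of the lists are not reported here. Receptors, lists and tests were chosen with earlier results of these data known. Comparisons that share a group share its libraries. Depth per library ran between 26250197 and 39252382 counts, which limits the precision for Adra2b and Adrb3.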

Additional observations from a re-analysis of the deposited data

How the results depend on the processing

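Log2 fold changes of the receptors and of the pathway genes named, 58 in all over the comparisons, were recomputed under the alternatives. Of 510 such values, apart from single libraries left out, 401 kept their direction and their side of the threshold, 48 missed it in the same direction, 4 passed newly and 57 changed sign; of 840 values with 1 library left out, 644 were the same, 144 missed the threshold, 3 passed newly and 49 changed sign. All sign changes were of receptor values that did not pass, and their cause was not tested.

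The count of receptors called for MS_EC12 against Control, 1 over all 24 libraries, was 0 without the filter on low counts (Adrb3 adjusted p = 0.0757), 0 with either TPM pseudocount (0.0603 and 0.0614) and 0 with the GC slope as a covariate; it was 1 in the 17 libraries of GC slope below 0, where the gene is Adrb1 and not Adrb3. DESeq2 (adjusted p = 0.0298), the other scaling (0.0439) and the compared groups alone (0.0452) kept Adrb3. For the EC-12 average, 0 over all libraries, it was 1 with DESeq2 (Adrb3), 1 with the replicate block (Adrb3) and 1 in the 17 libraries (Adrb1). With 1 library left out, each of these 2 counts ran between 0 and 1; the EC-12 average called Adrb3 without Control_EC12 replicate 6 (adjusted p = 0.042) and without MS_EC12 replicate 1 (0.0339) or 2 (0.0356). In the other 6 comparisons the count of receptors called was 0 under every alternative run.

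The following log2 fold changes had the opposite sign to the value over all 24 libraries. With the GC slope as a covariate, for MS_EC12 against Control: Adra1a 0.055, Adra1b -0.087, Adra1d -0.10, Adra2a -0.18 and Adra2c -0.31; for MS_EC12 against MS: Adra1a 0.078, Adra1b -0.065, Adra1d -0.12, Adra2a -0.0036, Adra2b -0.15, Adra2c -0.20 and Adrb1 -0.23; for MS_EC12 against Control_EC12: Adra1b -0.031, Adra2a -0.00057, Adra2b -0.066, Adra2c -0.081, Adrb1 -0.078 and Adrb3 -0.065; for Adra1b, -0.056 in Control_EC12 against Control and -0.022 in MS against Control. In the libraries of GC slope below 0, for MS_EC12 against Control: Adra1a 0.019, Adra1b -0.19, Adra1d -0.25, Adra2a -0.18, Adra2b 0.061 and Adra2c -0.32; for MS_EC12 against MS: Adra1a 0.040, Adra1b -0.065, Adra1d -0.21, Adra2c -0.18, Adrb1 -0.32 and Adrb3 -0.0047; for MS_EC12 against Control_EC12: Adra1b -0.14, Adra1d -0.14, Adra2a -0.021, Adrb1 -0.17 and Adrb3 -0.0054; for MS against Control, Adra1b -0.12 and Adra1d -0.035; for Control_EC12 against Control, Adra1b -0.047. On the TPM scale, with pseudocounts of 0.5 and 0.1 in turn: Adra1b -0.018 and -0.019 for MS against Control; Adra1d -0.0013 and -0.0012, Adra2b -0.024 and -0.028, and Adrb1 -0.12 and -0.12 for MS_EC12 against MS; Adra2a -0.12 and -0.12, and Adra2c -0.052 and -0.053 for MS_EC12 against Control; Adra2b -0.0093 and -0.0065 for MS_EC12 against Control_EC12; and, with 0.5 alone, Adrb3 -0.0044 in that comparison. TPM also moved the median of all genes for MS_EC12 against Control to -0.084 and -0.10, against 0.0074 for the counts, and its calls were 612 higher and 3458 lower with 0.5, against 1344 higher and 1250 lower for the counts.

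With 1 library left out, these ranges crossed 0. For MS_EC12 against Control they were -0.054 to 0.051 for Adra2a, -0.15 to 0.12 for Adra2b, -0.034 to 0.19 for Adra2c and -0.089 to 0.045 for Adrb1. For Control_EC12 against Control they were -0.0064 to 0.21 for Adra1a, -0.0014 to 0.15 for Adra1b, -0.25 to 0.079 for Adra2b and -0.18 to 0.0092 for Adra2c. For MS against Control they were -0.13 to 0.13 for Adra1b, -0.036 to 0.15 for Adra1d and -0.24 to 0.11 for Adra2b. For MS_EC12 against MS they were -0.019 to 0.20 for Adra1d, -0.10 to 0.19 for Adra2b and -0.049 to 0.085 for Adrb1, and for MS_EC12 against Control_EC12 -0.065 to 0.22 for Adra2b and -0.057 to 0.17 for Adrb3.

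Replicate numbers are shared by the groups, but not every same-numbered pair deviated together. Correlations ran between 0.122 and 0.36 for number 1 and between -0.048 and 0.575 for number 3, and the other numbers had pairs between -0.30 and 0.172; 5 of 24 libraries were closest to a library of another group with their own number. With the replicate block, Adrb3 kept its call for MS_EC12 against Control (adjusted p = 0.0226) and gained one for the EC-12 average (0.0376), the count of all genes called was 5939 against 2594 without it for the first and 4552 against 1448 for the second, and 2 receptor values changed sign, Adra1b to -0.014 for MS against Control and Adrb1 to -0.0050 for MS_EC12 against MS. Calls over all genes for MS_EC12 against Control ranged between 10 and 6565 with 1 library left out, so the adjusted p of a single gene in this comparison moved with the whole table. Depth limits Adrb3 and Adra2b, with at most 68 and 49 counts in a library.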
